A study of Sus scrofa with 11 samples.

Results

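The genes described here are the growth arrest genes of the BTG/TOB and GADD45 families together with CDKN1A, in the *M. semimembranosus* of Duroc gilts fed a low protein (LP) or a high protein (HP) diet. Of the 8 genes named (BTG1, BTG2, BTG3, TOB1, GADD45A, GADD45B, GADD45G and CDKN1A), 7 were read by the array and BTG3 was not analysed. They are 7 of 6765 genes with a probe set of a single symbol and account for 9 of the 23999 probe sets tested, a probe set being several short probes summarised as 1 level. Members were taken by gene symbol from the platform annotation, which named 8 of the 9 probe sets, and the remaining BTG2 probe set carries that name in the study's own annotation. BTG2 and GADD45B each have 2 probe sets, called a and b here in order of brightness, and the other 5 genes have 1 each. The set was chosen by LP against HP values of these same pigs, in that BTG2 was among the genes the study called and the other members were proposed by name with those results known, so the difference between the diets is given for them as a description with no test.

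The 5 LP pigs received a diet with 128 g/kg crude protein and 7 g/kg lysine, and the 6 HP pigs one with 217 g/kg crude protein and 13 g/kg lysine. All 11 were purebred gilts of about 10 weeks at the start, ate freely for 63 days, and had diets of the same estimated digestible energy (14 MJ/kg), the protein being lowered by more wheat and less soyabean meal. Muscle from each pig was hybridised to an Affymetrix porcine array of its own, and values are the deposited log2 expression levels, on which a difference of 1 is a doubling. The pigs were housed in 2 pens and blocked by starting weight; which pig had which pen, block or slaughter date is not known here, and their part cannot be told apart from that of the diets.

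BTG and TOB proteins are antiproliferative adaptors. They bind the CCR4-NOT complex, which removes poly(A) tails and so speeds the decay of messenger RNAs, and they slow the passage of cells into DNA synthesis. BTG2 is itself an immediate early gene and a p53 target, and is best known from cells that leave the cell cycle to differentiate. GADD45 proteins are small stress-induced proteins that bind the kinase MAP3K4 and so switch on p38 and JNK, and that also bind PCNA and CDK1, and GADD45A is known in skeletal muscle for its induction on denervation and fasting. CDKN1A, or p21, inhibits cyclin-dependent kinases and is switched on when myoblasts leave the cycle to form fibres.

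No probe or transcript sequence of the members was used here, and the only designed sequences that stand for a member are the primers with which the study measured BTG2 by quantitative PCR. They are shown because BTG2 is the member with the largest difference between the diets; each has 20 bases, is written 5′ to 3′ with nothing marked, and its PCR values are not used here.
BTG2 forward primer: gcccctgcctttttataagc
BTG2 reverse primer: agacaggcctgctcaacagt

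The arrays shared a median of 6.72, and 74.9 to 85.3% of probe sets on an array were above the highest of its 23 negative control probe sets. Above that median the arrays differed. The mean of 27 hybridisation spike-in probe sets, which read bacterial controls added to each hybridisation, was 11.4 to 11.8 in LP and 11.3 to 12.2 in HP (difference −0.26, exact permutation p = 0.186, two-sided), and HP replicates 1, 2 and 4 had the brightest upper end. The actin 3′ minus 5′ level, a sign of RNA quality, averaged 5.53 in LP and 5.96 in HP (difference −0.43, exact permutation p = 0.123, two-sided), with LP at 5.12 to 5.93 and HP at 5.38 to 6.46; its part in the members' levels was not tested. Of 16 skeletal muscle fibre markers, 12 were measured, such as creatine kinase, myosin and troponin genes, all above the negative controls on every array. None passed the test (limma, p of 0.05 or less), and the sign of their differences depended on the scaling. As deposited all 12 were below 0 with a median of −0.25, after quantile normalization 7 were above 0 (median 0.01), on the spike-in scale 10 (median 0.02), and without HP replicates 1, 2 and 4 all 12 (median 0.12). This is bulk tissue, in which fewer cells of a type and less RNA per cell cannot be told apart.

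All 9 member probe sets were above every negative control on all 11 arrays, by at least 3.004, and all had a mean at or above that of the median probe set. Of the 9 differences between LP and HP, 7 were above 0 and 2 below, with a median of 0.15 against −0.02 over all probe sets. Both BTG2 probe sets were past the study's threshold (limma, unadjusted p of 0.05 or less) as higher in LP and no member was past it as lower, against 2.15% of all probe sets higher and 2.97% lower. Because the genes were proposed from this contrast, nothing is read from that count. LP and HP pigs overlapped for all 9 probe sets, and they did not overlap for 0.579% of all probe sets. Over all probe sets 1227 were past the threshold (5.11%), and 0 after Benjamini-Hochberg adjustment in limma, where the smallest adjusted p was 0.644.

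**Figure D1:**
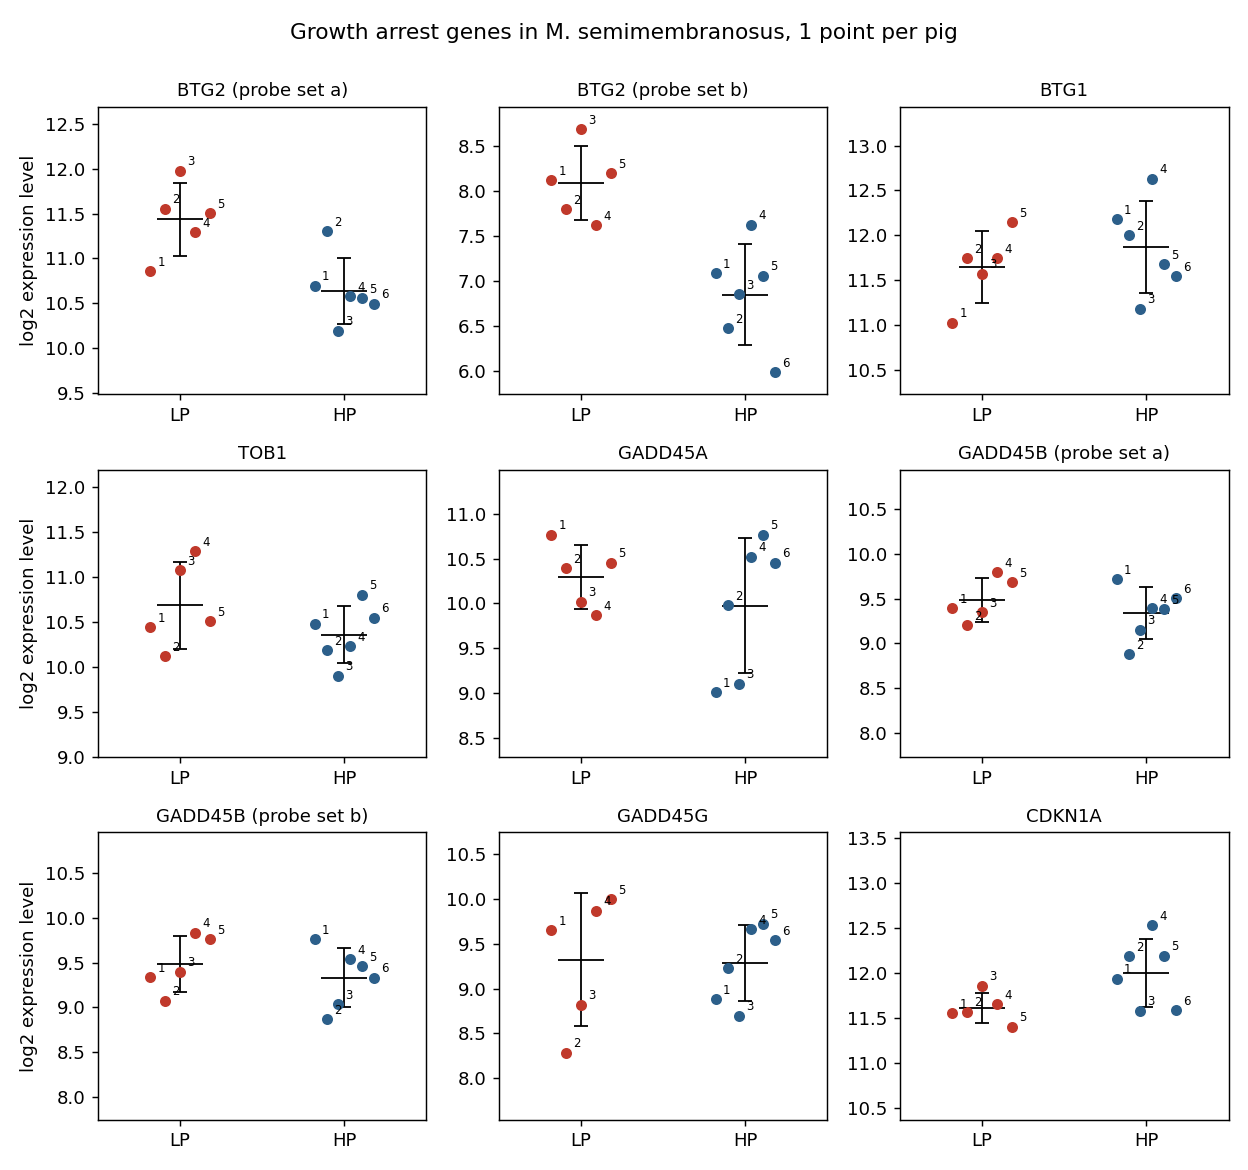
Log2 expression level of the 9 member probe sets, LP on the left and HP on the right of each panel, with 1 point per pig numbered by replicate, the mean as a line and the SD as a bar; each panel spans the same number of log2 units. BTG2 is higher in LP on both probe sets with 1 HP pig inside the LP range on each, and the other members overlap more.

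In the BTG/TOB family, BTG2 was higher in LP on both of its probe sets, by 1.74-fold on probe set a and 2.36-fold on probe set b, while BTG1 and TOB1 differed by less than their spread between pigs. Probe set a of BTG2 read 10.86, 11.55, 11.98, 11.29 and 11.50 in LP replicates 1 to 5, and 10.69, 11.30, 10.20, 10.58, 10.55 and 10.50 in HP replicates 1 to 6. HP replicate 2 stood above the other HP pigs and inside the LP range, and LP replicate 1 was the lowest LP pig, so that 3 of 5 LP pigs were above every HP pig. The means were 11.44 ± 0.41 in LP (SD, n = 5) and 10.64 ± 0.37 in HP (SD, n = 6), a difference of 0.80 with a standard error of 0.23.

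Probe set b of BTG2 read 8.12, 7.80, 8.69, 7.62 and 8.20 in LP, and 7.09, 6.47, 6.85, 7.63, 7.06 and 5.98 in HP. Here 4 of 5 LP pigs were above every HP pig, and the HP pig inside the LP range was replicate 4, not replicate 2, which was the second lowest HP pig. The means were 8.09 ± 0.41 in LP and 6.85 ± 0.56 in HP (SD, n = 5 and 6), a difference of 1.24 with a standard error of 0.29. All 5 LP pigs were above the HP mean on each probe set. Across all the alternatives tried the difference stayed between 0.66 and 1.06 on probe set a and between 1.07 and 1.504 on probe set b.

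BTG1, like BTG2 a brake on proliferation, read 11.03, 11.74, 11.57, 11.75 and 12.14 in LP, and 12.18, 12.003, 11.18, 12.63, 11.68 and 11.55 in HP. Only LP replicate 1 lay below the lowest HP pig, and no LP pig lay above the highest. Its means were 11.65 ± 0.40 in LP and 11.87 ± 0.51 in HP (SD, n = 5 and 6), a difference of −0.22 (standard error 0.27) that became 0.04 when the arrays were scaled on the spike-ins and 0.18 without HP replicates 1, 2 and 4. BTG1 was the 1 member whose relation with the brightness of the arrays within diets passed. Its deviations from the diet means correlated with those of the spike-in mean with r = 0.80 and rho = 0.89 over 11 pigs (exact permutation p = 0.00405 and 8.80e-04; 0.0365 and 0.00792 after Benjamini-Hochberg adjustment over 9 relations), and with r = 0.74 without HP replicates 2 and 4, the 2 arrays farthest out. Within LP alone r was 0.62 and within HP alone 0.89.

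TOB1, which slows growth through the same CCR4-NOT contact, read 10.44, 10.11, 11.08, 11.29 and 10.51 in LP, and 10.48, 10.19, 9.90, 10.23, 10.80 and 10.55 in HP. LP replicates 3 and 4 were above every HP pig and the other 3 LP pigs lay within the HP range. The means were 10.69 ± 0.48 in LP and 10.36 ± 0.32 in HP (SD, n = 5 and 6), a difference of 0.33 with a standard error of 0.24. The 2 LP pigs highest for TOB1 were not the 2 highest for BTG2: replicate 3 was the highest on both BTG2 probe sets and replicate 4 the lowest LP pig on probe set b.

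The GADD45 genes did not separate the diets. GADD45A, the form tied to muscle denervation and fasting, read 10.76, 10.39, 10.02, 9.87 and 10.45 in LP, and 9.01, 9.98, 9.11, 10.52, 10.77 and 10.46 in HP. HP replicates 1 and 3 were low, by more than a log2 unit below HP replicates 4 to 6, which were as high as the LP pigs. The means were 10.30 ± 0.36 in LP and 9.97 ± 0.75 in HP (SD, n = 5 and 6), a difference of 0.33 with a standard error of 0.35.

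GADD45B, a target of TGF-beta and of NF-kappaB in other tissues, was read almost identically by both of its probe sets. Probe set a read 9.39, 9.21, 9.35, 9.79 and 9.68 in LP, and 9.72, 8.88, 9.15, 9.39, 9.38 and 9.50 in HP. The difference was 0.15 on each probe set, with a standard error of 0.17 on a and 0.20 on b, and 1 LP pig, replicate 4, was above every HP pig. Between the probe sets r was 0.95 and rho 0.96 over the 11 deviations from the diet means. The exact permutation p was 2.20e-04 and 2.43e-04, for a single relation looked at after its values were seen. Without HP replicate 2 and LP replicate 4, the 2 pigs farthest from the median level of probe set a, r was 0.92. Over all 11 pigs the same comparison between the probe sets of BTG2 gave r = 0.10.

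GADD45G spread most widely among the LP pigs, at 9.65, 8.28, 8.82, 9.87 and 9.99, against 8.88, 9.23, 8.70, 9.66, 9.72 and 9.54 in HP. LP pigs were both the lowest and the 2 highest of all 11. The means were 9.32 ± 0.74 in LP and 9.29 ± 0.43 in HP (SD, n = 5 and 6), a difference of 0.04 with a standard error of 0.33, whose sign depended on which array was left out (−0.13 to 0.30).

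CDKN1A had the lowest difference of the members. It read 11.55, 11.57, 11.86, 11.65 and 11.40 in LP, and 11.93, 12.19, 11.58, 12.53, 12.19 and 11.59 in HP. The LP pigs lay close together, 3 of 5 were below every HP pig and all 5 were below the HP mean, while HP replicates 3 and 6 were as low as the LP pigs. The means were 11.61 ± 0.17 in LP and 12.001 ± 0.38 in HP (SD, n = 5 and 6), a difference of −0.40 with a standard error of 0.19. The difference was −0.30 after quantile normalization and −0.13 on the spike-in scale. The gene's correlation with the spike-in mean within diets was r = 0.80 and rho = 0.60 (exact permutation p = 0.0260 and 0.111, adjusted p = 0.117 and 0.373). It was r = 0.65 without HP replicates 2 and 4, left out by their spike-in level as for BTG1.

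**Figure D2:**
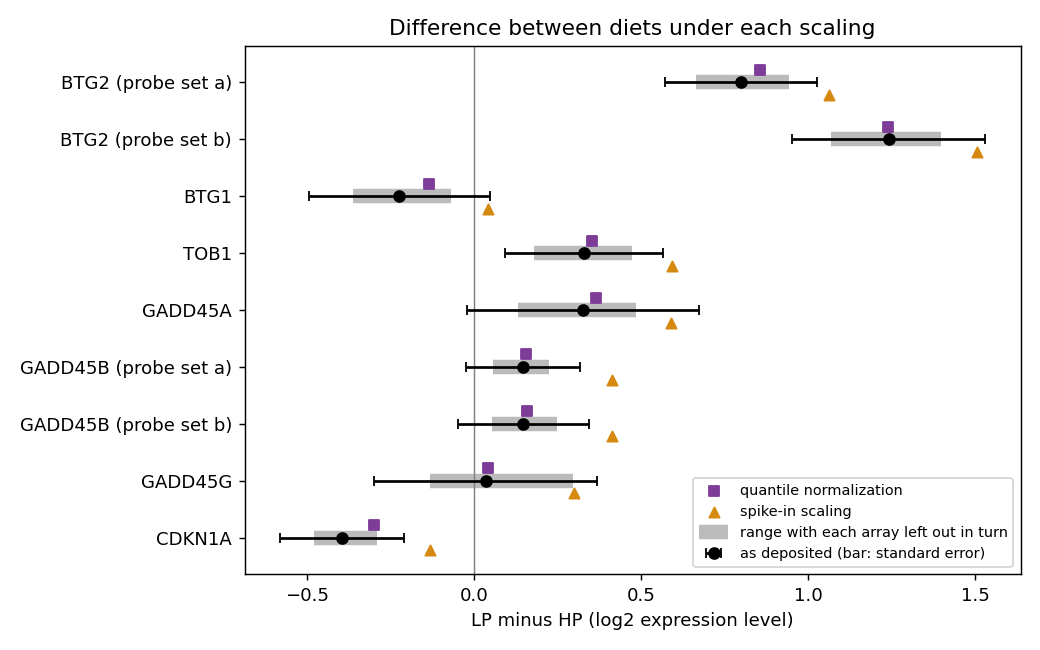
LP minus HP difference in log2 expression level of each member probe set, as a black point with its standard error for the deposited levels, a grey band for the range with each array left out in turn, a square for quantile normalization and a triangle for scaling on the spike-ins. BTG2 keeps its side under every setting drawn, while BTG1 moves to 0.04 and CDKN1A to −0.13 on the spike-in scale.

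The median SD of the members within diets was 0.40, against 0.25 over all probe sets at or above the median level, with no matching on level. GADD45A (0.61) and GADD45G (0.59) were the widest and probe set a of GADD45B (0.27) the narrowest.

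Whether the members varied together within diets, which the choice of genes did not use, was tested for BTG2 probe set a against 7 readings: its own probe set b, and 1 probe set of each other member. None of the 7 relations passed after adjustment, and none had an unadjusted exact permutation p of 0.05 or less. With BTG1 r was 0.48 and rho 0.56 (exact permutation p = 0.156 and 0.0819, adjusted p = 0.628 and 0.573), and with CDKN1A r was 0.44 and rho 0.41 (exact permutation p = 0.179 and 0.219, adjusted p = 0.628 and 0.744). Without LP replicates 2 and 3, the 2 pigs farthest from the median level of BTG2 over both diets, r was 0.61 with BTG1 and 0.35 with CDKN1A. HP replicate 2 (0.67) and LP replicate 1 (−0.58) deviated most from their diet means and stayed in, so this step cannot show whether r rests on them. On the spike-in scale r was 0.03 with BTG1 and 0.15 with CDKN1A. With TOB1 r was 0.16, and with the GADD45 genes it was between −0.34 for GADD45B and −0.08 for GADD45A, all with adjusted p of 0.764 or more in the exact permutation test.

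The relation between the BTG2 probe sets themselves was r = 0.10 and rho = 0.22 (exact permutation p = 0.781 and 0.531, adjusted p = 0.836 and 0.744), or −0.15 without the same 2 pigs. It was 0.52 in LP alone and −0.17 in HP alone. Thus both readings of BTG2 were higher in LP, but over the 11 pigs no relation between them within diets was detected. Among the other pairs, given as a description, TOB1 had r of 0.55 and 0.60 with the probe sets of GADD45B, and GADD45G had r between 0.45 and 0.56 with TOB1, GADD45A and both probe sets of GADD45B. CDKN1A had r = 0.61 with BTG2 probe set b and 0.56 with BTG1, and all of these points share their arrays and the brightness of those arrays.

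**Figure D3:**
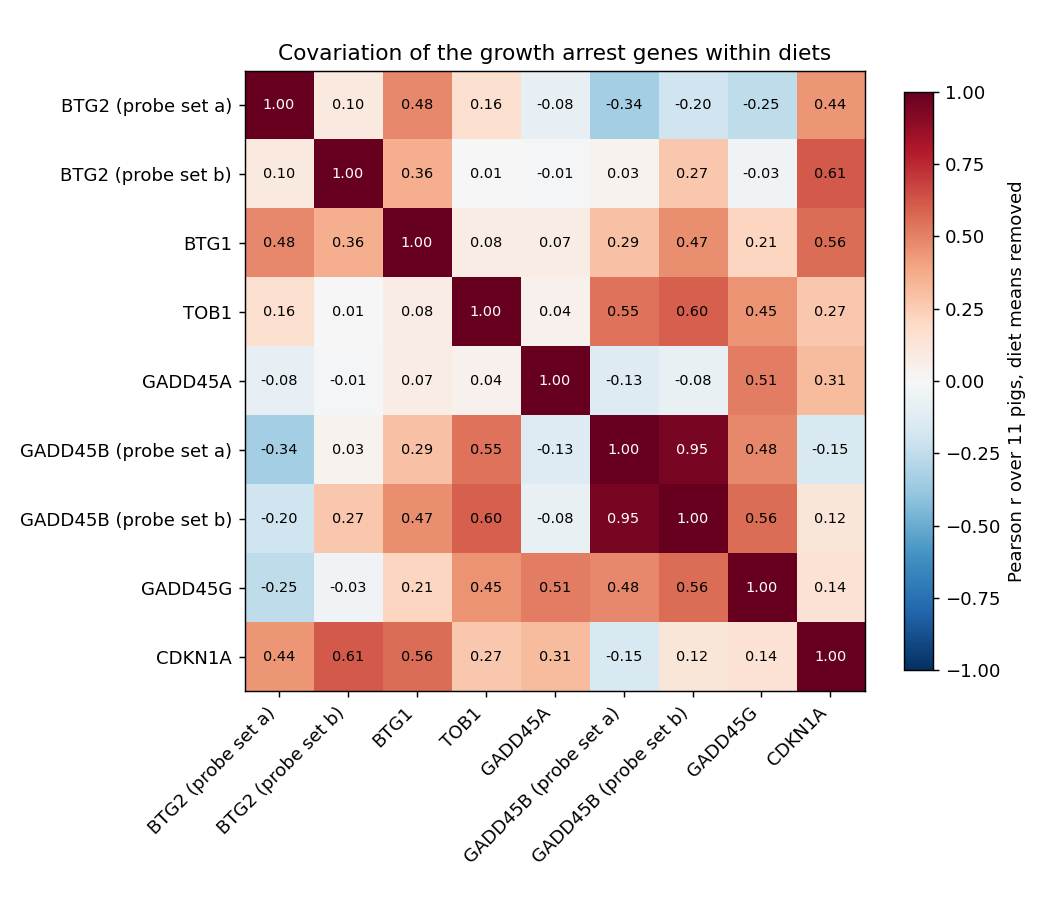
Pearson correlation of each pair of member probe sets over 11 pigs after the diet means were removed, as a colour and a value in each square. The 2 probe sets of GADD45B reach 0.95 and those of BTG2 0.10. TOB1, GADD45B and GADD45G have 0.45 to 0.60 with each other, and CDKN1A has 0.61 with BTG2 probe set b and 0.56 with BTG1.

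The genes most like BTG2 probe set a in their deviations within diets were ranked among 4665 genes, over 11 pigs and as a description, since a top of a ranking is high by choice. The median r over all of these genes was 0.23. IER5, an immediate early gene, ranked first with r = 0.94, and this was 0.94 within LP, 0.95 within HP, 0.93 after quantile normalization and 0.94 on the spike-in scale. Its r with the spike-in mean itself was 0.39. Next came ACOX3, a peroxisomal acyl-CoA oxidase (0.88), LOC100739098 (0.86), the kinase gene FASTK (0.85), VPS41 of the lysosomal tethering complex (0.85), the histone deacetylase HDAC11 (0.83), NARF, a prelamin A binding protein (0.83), the orphan receptor GPRC5C (0.83), WASHC5 of the WASH complex (0.83) and TP53BP2, a p53-binding protein (0.82). On the spike-in scale the r of these 9 was between 0.57 for LOC100739098 and 0.82 for ACOX3. With BTG2 probe set b it was between −0.32 for WASHC5 and 0.34 for FASTK. Dimmer probe sets had r with BTG2 probe set a of 0.06 for ACOX3, 0.87 and 0.62 for GPRC5C, and 0.54 and 0.44 for WASHC5.

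IER5 itself read 9.36, 10.31, 10.36, 9.70 and 10.11 in LP, and 9.41, 9.95, 8.88, 9.30, 9.33 and 9.46 in HP. As for BTG2 probe set a, replicate 1 was the lowest LP pig and replicate 3 the highest, and replicate 2 was the highest HP pig and replicate 3 the lowest. IER5 had no such likeness to BTG2 probe set b (r = −0.05), and its 2 dimmer probe sets had r of 0.30 and 0.72 with probe set a. IER5 was also the only gene of the 10 past the threshold between the diets by a difference of 0.58 with a standard error of 0.23 (limma p = 0.0266, exact permutation p = 0.0368); the other 9 had differences between −0.31 and 0.15. The call on IER5 was lost without HP replicate 3 and without LP replicate 2, 3 or 5, with a difference of 0.48 to 0.55.

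**Figure D4:**
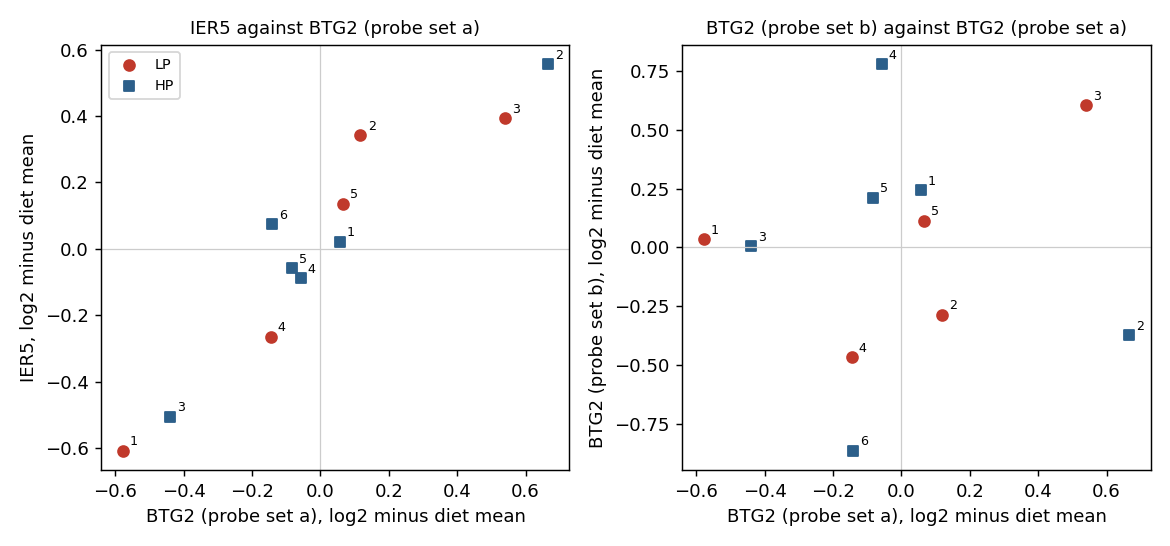
Deviation from the diet mean in log2 expression level of IER5 (left) and of BTG2 probe set b (right) against that of BTG2 probe set a, with 1 numbered point per pig, LP as circles and HP as squares. IER5 runs along the diagonal in both diets (r = 0.94, also on the spike-in scale), while the BTG2 probe sets do not follow each other (r = 0.10).

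The genes around the members were read from 12 lists of 189 genes in all, of which 113 genes in 11 lists were measured, each by its brightest probe set; BTG4 and TOB2, the remaining list, were not measured here. In limma, 7 of the 113 were past the threshold as higher in LP and 5 as lower (10.6% in all, against 5.11% of all probe sets), and the median difference was −0.08 against −0.02. The lists were drawn up with results of these pigs known. Without HP replicate 3 the counts were 4 higher and 12 lower. The 4 higher were also found without LP replicate 2 and without LP replicate 5, and 2 lower were found without HP replicate 1 or 4 or LP replicate 2 or 3, and 3 without HP replicate 2.

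Calls among the partners through which the members act are set beside the 5.11% of all probe sets past the threshold in limma. None of 12 genes of CCR4-NOT and poly(A) tail removal passed in limma; the smallest p values were those of the deadenylase CNOT8 (difference −0.27, exact permutation p = 0.0433), the scaffold CNOT1 (−0.22) and the nuclear poly(A) binding protein PABPN1 (0.19, with −0.21 on each of its other 2 probe sets). None of 11 GADD45 partners and stress kinases passed either, the nearest being CCNB1, the cyclin of CDK1 (−0.72), the GADD45 target kinase MAP3K4 (−0.24) and the p38 activator MAP2K6 (0.27). None of 5 other CDK inhibitors passed, CDKN2D being at −0.20, CDKN1B at −0.16 and CDKN2B at 0.40, the last above the negative controls on 8 of 11 arrays.

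Of 5 genes of the kinase machinery that CDKN1A acts on, CDK2, the kinase that p21 is best known to inhibit, fell in LP and the other 4 did not pass, CCND2 being at 0.44 and E2F3 at 0.17. CDK2 averaged 7.77 ± 0.26 in LP and 8.26 ± 0.15 in HP (SD, n = 5 and 6), a difference of −0.48 with a standard error of 0.14 (limma p = 0.00561, exact permutation p = 0.00866). The call was lost on the spike-in scale (−0.22) and for the mean of the gene's 3 probe sets (−0.13), of which 1 was above the negative controls on 2 arrays only.

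Other lists hold immediate early genes and genes induced through ATF4 on amino acid shortage. Called higher in LP were 2 of 19 and 3 of 10, in that order, as were 2.15% of all probe sets. Of these 5, ATF5 was not above the negative controls on any array. Of 19 immediate early genes 2 rose, IER5 and the stress factor ATF3, and none fell. ATF3 averaged 10.71 ± 0.45 in LP and 9.76 ± 0.70 in HP (SD, n = 5 and 6), a difference of 0.95 with a standard error of 0.34 (limma p = 0.0179, exact permutation p = 0.0303), and the nuclear receptor NR4A3 did not pass at 0.99 with a standard error of 0.53. The median of the list was 0.06.

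Of 10 ATF4 genes 3 passed as higher in LP. DDIT3, the stress factor also called CHOP or GADD153, averaged 9.53 ± 0.20 in LP and 8.86 ± 0.26 in HP (SD, n = 5 and 6), a difference of 0.67 with a standard error of 0.15 (limma p = 0.00112, exact permutation p = 0.00649). The asparagine synthetase ASNS differed by 0.64 with a standard error of 0.22 (limma p = 0.0158, exact permutation p = 0.0260). The third, ATF5, is given no fold, being above the negative controls on 0 of 11 arrays. The calls on DDIT3 and ASNS held under all the alternatives tried, and so did that on ANGPTL4, described with the glucocorticoid genes.

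Of 14 p53 genes 1 passed as higher and 2 as lower, and the median was −0.12. SESN1, a stress-induced inhibitor of mTORC1 that is also a FOXO target, fell by 0.38 with a standard error of 0.16 (limma p = 0.0393, exact permutation p = 0.0476), and by 0.43 on its second probe set. The oxidoreductase TP53I3 rose by 0.59 with a standard error of 0.27 (limma p = 0.0491, exact permutation p = 0.0628). PLK3, the second gene called lower, was above the negative controls on 3 of 11 arrays. The call was lost for SESN1 without HP replicate 1, 2, 4 or 5 or LP replicate 1, 2 or 3, and on the spike-in scale (−0.11). The SESN1 call was also lost without HP replicates 1, 2 and 4 together. For TP53I3 it was lost without any single array except HP replicates 1 and 4, and with quantile normalization, median centring, a floor on low values, a trended robust prior or the replicate block.

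Of 13 FOXO genes, SESN1 and PDK4, the kinase that blocks pyruvate oxidation, passed as lower and none as higher. Below 0 were 12 of 13 differences with a median of −0.24, and 12 also after quantile normalization (median −0.11). The median was −0.10 without HP replicates 1, 2 and 4. On the spike-in scale it was 0.03, against 0.25 for all probe sets. PDK4 fell by 0.53 with a standard error of 0.22 (limma p = 0.0324, exact permutation p = 0.0498), a call lost without the same 7 arrays as for SESN1, on the spike-in scale (−0.27) and for the mean of its probe sets (−0.62). The PDK4 call was also lost without HP replicates 1, 2 and 4 together. TXNIP did not pass at −0.34. All 11 genes of the glucocorticoid list had differences below 0 with a median of −0.26, and all 11 also after quantile normalization (median −0.20). Among them TAT was above the negative controls on 0 of 11 arrays and MT1A on 2, so their signs carry little weight. Without HP replicates 1, 2 and 4 the median was −0.19 with 8 below 0. On the spike-in scale it was 0.01, against 0.25 for all probe sets. The lipoprotein lipase inhibitor ANGPTL4 was the 1 that passed, at 7.67 ± 0.61 in LP and 9.03 ± 0.26 in HP (SD, n = 5 and 6) with no overlap. Its difference was −1.36 with a standard error of 0.26 (limma p = 3.14e-04, exact permutation p = 0.00216). On its dimmer probe set, above the negative controls on 7 of 11 arrays, the difference was −3.29 with a standard error of 0.71. KLF9 (−0.42) and CEBPD (−0.60) did not pass.

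Of 9 TGF-beta and SMAD genes, which feed into CDK inhibitor genes, TGFB2 rose by 0.49 with a standard error of 0.18 (limma p = 0.0207, exact permutation p = 0.0238), a call lost without LP replicate 5 (0.38). Of its other 3 probe sets 2 passed in the same direction and 1 differed by 0.05. TGFB1 (−0.20) and TGFB3 (−0.35) did not pass. None of 6 myogenic and denervation factors passed, MYF5 being at 0.13, MYF6 at 0.19 and MEF2D at −0.09.

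**Figure D5:**
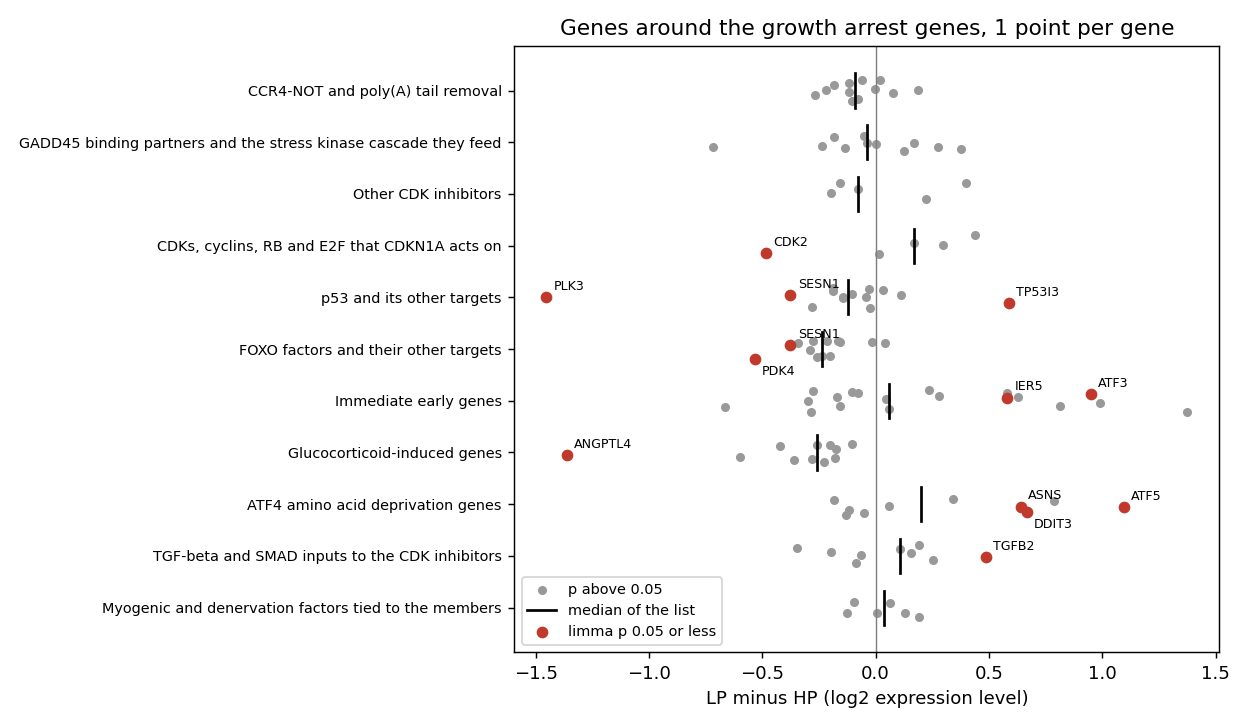
LP minus HP difference in log2 expression level of the 113 measured genes around the members, by list, with 1 point per gene, named and larger in red where the limma p was 0.05 or less, and the median of each list as a black line. Calls higher in LP lie mostly among immediate early and ATF4 genes, and the FOXO and glucocorticoid lists lie mostly below 0 as deposited. On the spike-in scale the medians of the FOXO and glucocorticoid lists were 0.03 and 0.01, against 0.25 for all probe sets.

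Of the markers of other cell types, 2 passed in limma, as did 5.11% of all probe sets. None of 5 adipocyte, 5 endothelial, 4 fibroblast, 4 macrophage, 2 red blood cell and 2 nerve markers did so. The adipokine LEP was at 0.74 (standard error 0.34, limma p = 0.0533) and the matrix proteoglycan DCN at −0.28 with all 5 LP pigs below the HP mean (limma p = 0.0525, exact permutation p = 0.0346). All 4 macrophage markers were below 0 with a median of −0.27, and the fibroblast median was −0.26. These medians were −0.28 and −0.22 after quantile normalization, and −0.30 and −0.16 without HP replicates 1, 2 and 4. On the spike-in scale they were −0.00880 and 0.00415, against 0.25 for all probe sets. The pericyte marker RGS5 was 1 of 4 pericyte and smooth muscle markers and fell by 0.44 with a standard error of 0.14 (limma p = 0.00804, exact permutation p = 0.00866). Its call was lost on the spike-in scale and without HP replicates 1, 2 and 4. Of 4 lymphocyte markers the 1 that passed, CD79B, was below the negative controls on all arrays. The summed level of the adipocyte list was 12.81 to 13.33 in LP and 12.71 to 13.46 in HP. It adds unlogged values and so rests mostly on FABP4 (mean 12.10 in LP, 12.21 in HP) and LPL (11.87 and 11.86), and hardly on LEP. The summed level of the pericyte and smooth muscle list was 11.67 to 11.98 in LP and 11.89 to 12.42 in HP. The part of these cells in the members' levels was not tested.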

How the data were processed

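Expression in the *M. semimembranosus* of 11 gilts (LP 5, HP 6, grouped by the diet in their labels) was measured with 1 Affymetrix porcine array per pig. The deposited values are log2 expression levels per probe set, made by the authors in R and Bioconductor; which background and normalisation steps they took is not given in the sources used here. The study estimated differences with puma, whose probe-level uncertainty the deposited levels do not carry, and its carcass and PCR data were not used.

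Of 24123 probe sets, 124 controls were left out. LP minus HP was fitted over 23999 probe sets in R 4.3.3 with limma 3.58.1 (constant prior, two-sided), with calls where the unadjusted p was at most 0.05, as in the study. Named list genes were tested a second time by exact permutation of the mean difference over 462 splits. Correlations used deviations from diet means and exact permutation over 86400 reorderings within diets. The fit was tested on simulated data. Symbols came from the platform annotation, in which 10069 probe sets had 1 symbol, 198 several and 13732 none. The number of arrays limits the precision. Each array is a separate pig, so p-values measure the spread between pigs.

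Members and lists were chosen with earlier results of these data known. Named genes were the 3 of each list with the smallest limma p and the 10 most like the brightest BTG2 probe set; probe sets other than the brightest of a gene were described after their values were seen. Alternatives were quantile normalization, median centring, leaving out dim probe sets, array weights, a floor at the 20th percentile, a replicate block, a trended robust prior, the mean of a gene's probe sets, and leaving out each array. Scaling on the spike-ins and leaving out HP replicates 1, 2 and 4 were added after the values were seen.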

Additional observations from a re-analysis of the deposited data

Results flagged for a closer look

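Dixon's test, at its 95% limit, was used to look for single pigs far from the rest of their diet in 82 groups, 18 of them of member probe sets. No member was picked out and 6 groups of other named genes were, against about 1 in 20 by chance. CNOT8 was highest in LP replicate 4, at 9.25 with the next LP pig at 9.10. MAP2K6 was lowest in LP replicate 1, at 7.51 with the next at 8.10. PDK4 was lowest in HP replicate 3, at 12.5 with the next HP pig at 13.0. TGFB1 was lowest in LP replicate 5 (6.42, the next LP pig at 7.00) and in HP replicate 1 (6.86, the next HP pig at 7.15). MYF6 was highest in LP replicate 5, at 10.6 with the next at 10.2.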

How the results depend on the processing

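BTG2 was higher in LP under all alternatives, and no member other than BTG1 and GADD45G changed sign under any. The count of members past the threshold as lower in LP was 1 (CDKN1A) instead of 0 without dim probe sets, with quantile normalization and with a trended robust prior, and 0 to 1 with each array left out. Over all probe sets, 277 were higher and 433 lower without dim probe sets, 2065 and 114 on the spike-in scale, which moved the median difference by 0.264, and 1129 higher without HP replicates 1, 2 and 4. Genes of the lists numbered 15 higher and 1 lower on the spike-in scale, 8 lower with array weights and with a trended robust prior, 2 lower without HP replicates 1, 2 and 4, and 4 to 9 higher and 2 to 12 lower with each array left out. The number with an adjusted p under 0.05 in limma was 0 to 3 with each array left out, 2 with low values raised and 2 without HP replicates 1, 2 and 4.

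On the spike-in scale the sign turned for CNOT1 (0.0458), MAP3K4 (0.0284), CDKN1B (0.11), CDKN2D (0.0656), TGFB1 (0.0688) and MEF2D (0.17). It also turned for the mean of all probe sets of CNOT1 (0.0405) and of PABPN1 (−0.0802), and for MEF2D without HP replicates 1, 2 and 4 (0.00747), its range with each array left out being −0.19 to 0.00630. No within-diet correlation of BTG2 probe set a passed under any alternative, and several changed sign. With probe set b, r was −0.15 without the 2 pigs farthest from the median, 0.52 in LP alone and −0.17 in HP alone, −0.0229 on the spike-in scale and −0.18 to 0.36 with each array left out. With TOB1, rho was −0.0273 and r −0.0367 to 0.34 with each array left out. With GADD45A, r was 0.00680 without those 2 pigs, 0.12 in HP alone and −0.38 to 0.10 with each array left out. With GADD45B it was 0.0346 for BTG2 probe set b and −0.50 to 0.0861 with each array left out, and with GADD45G 0.24 without those 2 pigs and 0.13 in HP alone.

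No pairing of pigs by the replicate numbers of the labels was seen: the correlation of deviations between same-numbered pigs was −0.15, 0.04, 0.01, 0.09 and 0.06. Pigs of different numbers were not compared, and whether the numbers follow the weight blocks is not known here. With the number as a block, which drops HP replicate 6, BTG2 differed by 0.77 on probe set a and 1.07 on b, and ATF3 was no longer past the threshold (0.74).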
